A study of Mus musculus with 2 samples.

Results

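The cells described here were Postn/Cthrc1 matrix-activated fibroblasts, 626 of the 35848 aortic cells that passed the quality filter in both libraries together. They were chosen by their own UMI counts, a UMI being a molecular tag that counts each captured transcript once. A cell needed at least 5 UMIs of Dcn, at least 2 of Pdgfra and Lum together, at most 1 of the endothelial genes Pecam1 and Cdh5 together, at most 1 of the leukocyte gene Ptprc and at most 2 of the smooth muscle gene Myh11. These criteria gave 6663 gated fibroblasts, 1808 from Control and 4855 from AngII+HS. Members also had no UMI of Pi16 or Dpp4, genes of adventitial fibroblasts, and at least 3 UMIs of Postn and Cthrc1 together. The Control library held 16 members and the AngII+HS library 610, so the AngII+HS library carries most of what follows.

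The data were single-cell RNA sequencing (scRNA-seq) UMI counts from the suprarenal abdominal aorta of male C57BL/6J mice, 5 months old, with 1 library per condition. The AngII+HS group received angiotensin II from a subcutaneous osmotic minipump for 28 days with 0.9% NaCl and 0.2% KCl in the drinking water, a regimen that produces abdominal aortic aneurysm (AAA). The Control group received normal saline. Each library came from tissue pooled over mice, given as 5 per library in the series text and as 1 Control and 2 AngII+HS mice in the protocol label, so the spread between mice cannot be measured. The labels name no transgene or deleted gene in either group.

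The libraries held 86618995 and 117146856 UMIs over 11448 and 24804 barcodes, of which 11288 and 24560 passed as cells. A cell needed 500 UMIs, 200 detected genes and a mitochondrial share below 20%. Members had a median of 6808 UMIs per cell in Control and 6570.5 in AngII+HS, and 119146 and 5197647 UMIs in all. Each library's recorded list of barcodes has the length of the other library's matrix. A swap of the matrices would turn every direction between conditions given below. Comparisons within a library would keep their direction but belong to the other library. The library recorded as Control held 5843 cells with at least 10 UMIs of the smooth muscle gene Myh11 among its 11288, and the other 962 among its 24560. Cells with at least 50 UMIs of the neutrophil genes S100a8 and S100a9 numbered 108 and 2536. Smooth muscle cells were thus the larger share in the library recorded as Control, and neutrophils in the one recorded as AngII+HS. The lists shared 67 barcodes. Because each condition is 1 library, no difference between conditions was tested. All intervals are 95% intervals that cover counting error only.

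Aortic fibroblasts reside mainly in the adventitia, where they make and turn over the collagen network that bears load when the elastic media fails. On injury, some of them take on an activated state with secretion of fibrillar collagen, fibronectin and tenascin, without always gaining the contractile apparatus of a myofibroblast. Postn encodes periostin, a matricellular protein that binds collagen and promotes its crosslinking, and Cthrc1 encodes a secreted protein with a collagen triple helix repeat that is made by activated fibroblasts in several injured organs. Dcn encodes decorin, a small proteoglycan of collagen fibrils and a general fibroblast marker.

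Postn was the main source of the UMIs by which members were chosen. Levels here are summed UMIs over the cells of a group, scaled to a common library total (CPM). Postn stood at 965 CPM (797 to 1159, 115 UMIs) in Control members and at 772 CPM (749 to 797, 4014 UMIs) in AngII+HS members. Cthrc1 stood at 16.8 CPM (2.03 to 60.6) in Control members, where both of its 2 UMIs came from 1 cell, and at 167 CPM (156 to 179, 868 UMIs) in AngII+HS members. Of the 610 AngII+HS members, 238 held UMIs of both genes, 357 held Postn alone and 15 held Cthrc1 alone. Of the 16 Control members, 15 held Postn alone. The Control cells were therefore in the class through Postn, while 253 of the AngII+HS cells carried Cthrc1.

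The rule had a low threshold, and many members lay close to it. The median of Postn and Cthrc1 together was 5 UMIs per member in both libraries, with a highest cell of 25 in Control and 85 in AngII+HS. Exactly 3 UMIs were found in 4 Control and 142 AngII+HS members, and at least 10 UMIs in 3 and 151. The 142 AngII+HS members just inside the threshold had Col1a1 at 12602 CPM, Fn1 at 2033 CPM and Gsn at 1346 CPM. The 215 AngII+HS fibroblasts just outside it, with 2 UMIs, had Col1a1 at 11213 CPM, Fn1 at 1810 CPM and Gsn at 1635 CPM. Timp1 and Spp1 were lower just inside than just outside, at 1662 against 2140 CPM and 5004 against 6895 CPM. In Control, Col1a1 was 4255 CPM in the 4 cells just inside and 2566 CPM in the 12 just outside. The class is thus a range of Postn and Cthrc1 counts without a step at its edge in the AngII+HS library.

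**Figure D1:**
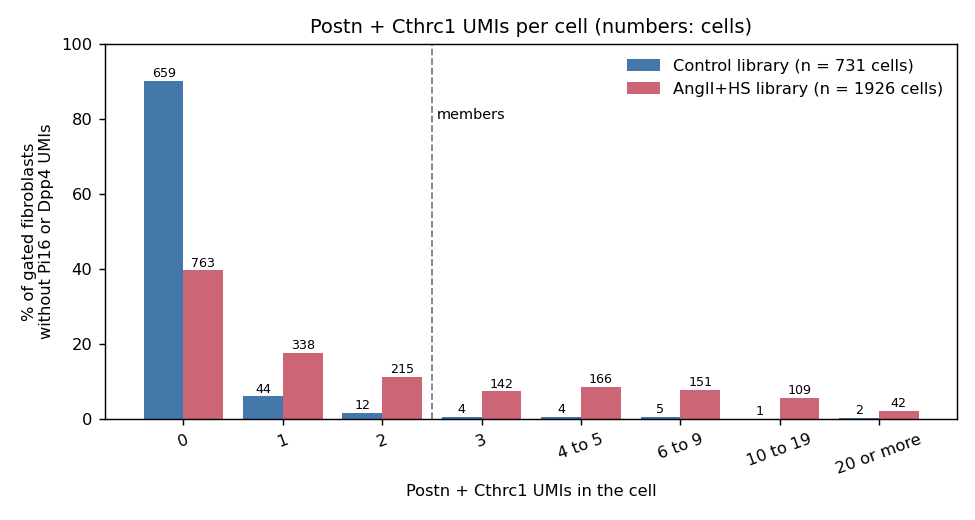
Gated fibroblasts without Pi16 or Dpp4 UMIs in each library, by the number of Postn and Cthrc1 UMIs per cell (x axis, binned) and the share of those cells (y axis, percent). In Control 659 of 731 cells held no such UMI and 16 held 3 or more, whereas in AngII+HS 763 of 1926 held none and 610 held 3 or more.

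The label was checked against its markers. All 14 fibroblast markers on the list were detected in the members of both libraries, with summed levels of 44911 CPM in Control and 55273 CPM in AngII+HS, against 1987 and 10243 CPM in cells with at least 2 Cd3d, Cd3e and Cd3g UMIs (the Cd3 gate, T cells that should lack fibroblast transcripts). Dcn, used in the rule, stood at 9358 CPM in Control and 6677 CPM in AngII+HS members. Lum, a keratan sulfate proteoglycan also used in the rule, stood at 1175 and 2764 CPM. Pdgfra, a growth factor receptor of fibroblasts, stood at 353 and 186 CPM. Dcn, Lum and Pdgfra were in the rule, so their levels do not bear on the label. Col1a1, outside the rule, stood at 4482 and 15008 CPM in members against 250 and 2422 CPM in the Cd3 gate. Col3a1, also outside it, stood at 4910 and 12722 CPM against 298 and 2266 CPM. These collagen levels did not go against the fibroblast part of the name. In Control, Cthrc1 was found in 1 member only, and the description as matrix-activated had little behind it there: Col1a1 had a log2 ratio of 0.60 over fibroblasts without the rule's genes, 1 cell held 201 of its 534 UMIs, and Gsn, a gene of quiescent fibroblasts, was not lower. The 16 Control cells are therefore called by the rule that chose them.

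Neither Postn nor a few UMIs of it was particular to fibroblasts. In cells with at least 10 Myh11 UMIs (the smooth muscle gate), Postn stood at 641 CPM in Control and 1364 CPM in AngII+HS, the latter above its level in members. Cthrc1 was 0.284 and 6.46 CPM in those smooth muscle cells, far below its 167 CPM in AngII+HS members. In the Cd3 gate, Postn was 167 and 133 CPM and Cthrc1 was 0 and 22.4 CPM. At least 3 Postn and Cthrc1 UMIs were found in 9.35% of the Control Cd3 gate (10 of 107 cells) and in 6.33% of that gate in AngII+HS (66 of 1043 cells), at median depths of 5259 and 2940 UMIs. With every cell thinned to 3000 UMIs, these shares were 1.35% and 3.59%.

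The share of gated fibroblasts with at least 3 such UMIs, whatever their Pi16 or Dpp4 counts, was 2.99% in Control and 34.7% in AngII+HS, at median depths of 3674 and 5639 UMIs. Thinned, it was 2.83% and 18.3%. The unthinned Control share lay below that of the deeper Control Cd3 gate, and the thinned share of 2.83% (1.89 to 4.07) overlapped that of the Cd3 gate (0.0342% to 7.30%, 1 of 74 cells), so neither is read as above background. The AngII+HS share lay above its Cd3 gate both before and after thinning.

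Members made up 0.885% (0.507 to 1.43) of gated fibroblasts in Control and 12.6% (11.6 to 13.5) in AngII+HS. Of all cells that passed the filter, they were 0.142% and 2.48%. Since the rule counts UMIs and gated fibroblasts were shallower in Control, both shares were computed again with cells thinned to 3000 UMIs, which left out 41.2% of gated fibroblasts in Control and 14.6% in AngII+HS. The thinned shares were 1.01% (0.486 to 1.85, 10 of 989 cells) and 9.80% (8.92 to 10.7, 412 of 4204 cells). The order of the libraries was the same at equal depth. The intervals count cells of 1 library each and do not cover the spread between mice, so they are not a test between conditions. How far the number of Control members exceeded free RNA was not tested.

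Fibroblasts with Pi16 or Dpp4 UMIs were 59.6% of the gate in Control and 60.3% in AngII+HS as deposited. Thinned to 3000 UMIs, the shares with such a UMI were 57.3% (54.2 to 60.4) in Control and 48.5% in AngII+HS, below the Control interval. Of the gated fibroblasts with at least 3 Postn and Cthrc1 UMIs, 70.4% (56.4 to 82.0, 38 of 54) in Control and 63.8% (61.4 to 66.1, 1074 of 1684) in AngII+HS had a Pi16 or Dpp4 UMI and were kept out of the class by that criterion. Pi16 encodes a peptidase inhibitor of adventitial fibroblasts and Dpp4 a cell surface peptidase of the same cells. With every cell thinned, cells with at least 3 Postn and Cthrc1 UMIs numbered 28 in Control, of which 10 were members, and 769 in AngII+HS, of which 412 were. Members were therefore the smaller portion of the AngII+HS cells past the threshold at full depth and the larger portion at equal depth.

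Markers of other cell types were read for free RNA and doublets, and their part in the results was not tested. The 8 smooth muscle markers, led by Acta2, summed to 1418 CPM in Control and 1172 CPM in AngII+HS members, against 26275 and 32643 CPM in the smooth muscle gate, and Actg2 was at 0 in Control members. The 9 macrophage markers, led by Lyz2, summed to 269 and 373 CPM in members against 12037 and 13530 CPM in the macrophage gate (at least 10 UMIs of C1qa, C1qb and C1qc), with Cd68, C1qb and Csf1r at 0 in Control members, and to 1410 CPM in the AngII+HS Cd3 gate. The 7 neutrophil markers, led by S100a9, summed to 434 CPM in AngII+HS members and 1230 CPM in the Cd3 gate of that library. In AngII+HS, both sums in members were thus below those in T cells of the same library. In Control the macrophage sum was higher in members, at 269 CPM against 45.4 CPM in the Cd3 gate and 64.6 CPM in gated fibroblasts without Pi16, Dpp4, Postn or Cthrc1 UMIs.

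The 8 endothelial markers summed to 58.8 and 175 CPM in members, the 7 T cell markers to 8.39 and 8.85 CPM, and the 7 pericyte markers, led by Rgs5, to 671 and 739 CPM, with the pericyte marker Higd1b at 0 in both libraries. B cell markers were all at 0 in Control members and summed to 201 CPM in AngII+HS members, of which Igkc gave 193 CPM. The 5 hemoglobin and heme genes were at 0 in Control members and summed to 295 CPM in AngII+HS members, where 1 cell held 784 of the 842 Hbb-bs UMIs. The 5 mesothelial markers summed to 0 and 0.385 CPM.

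To describe what the members expressed beyond the genes that chose them, they were set beside the gated fibroblasts of the same library without any UMI of Pi16, Dpp4, Postn or Cthrc1, 659 cells in Control and 763 in AngII+HS, called negative fibroblasts here. Members were chosen by UMI counts of the same cells, so this comparison is a description and carries no test. Negative fibroblasts were shallower, with medians of 2502 and 3906 UMIs. Ratios of single genes in the AngII+HS library are therefore mostly also given with every cell thinned to 3000 UMIs and the rule applied again. This left 412 members and 1026 negative fibroblasts in AngII+HS. At most 517 of these 1026 were negative fibroblasts at full depth, and the rest entered the group through thinning. Ratios after thinning thus differ from those at full depth in the cells compared as well as in depth. In the AngII+HS library, 115 of 8451 genes (1.36%) were 2-fold or more higher in members and 278 (3.29%) were 2-fold or more lower, and the median log2 ratio over all genes was -0.01.

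Fibrillar collagens stood higher in AngII+HS members than in negative fibroblasts of the same library. Of the 8 genes of this family that passed the filter on low values, 6 were past 2-fold higher and none was past 2-fold lower, with a median log2 ratio of 1.13. After thinning with the rule applied again, 3 of the 8 were past 2-fold with a median of 0.97, and with the thinned groups kept as chosen at full depth 6 were, with a median of 1.13. Col3a1, which encodes the type III chain of extensible vessel walls, was 12722 CPM in members and 5698 CPM in negative fibroblasts, a log2 ratio of 1.16 (1.14 to 1.18), and 1.07 after thinning. Col1a1, the main chain of type I collagen, was 15008 and 7615 CPM, a log2 ratio of 0.98 (0.96 to 0.999) that stayed at 0.98 after thinning. Col1a2, its partner chain, was 12073 and 7536 CPM with a log2 ratio of 0.68, and 0.81 after thinning.

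The minor fibrillar chains, which nucleate fibrils and set their diameter, also stood higher in members, at lower levels. Col5a1 was 615 against 296 CPM, Col5a2 was 1172 against 546 CPM and Col5a3 was 77.9 against 25.1 CPM, with log2 ratios of 1.06, 1.10 and 1.63, and 0.96, 0.84 and 1.21 after thinning. Col11a1, a chain best known from cartilage, was 122 against 43.7 CPM with a log2 ratio of 1.48 (1.22 to 1.75), and 1.30 (0.99 to 1.61) after thinning. Col27a1 was 111 against 44.9 CPM, and its log2 ratio of 1.30 became 0.82 after thinning.

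Other interstitial collagens differed less. Of 12 tested, 1 was past 2-fold higher and the median log2 ratio was 0.41. The exception was Col12a1, a fibril-associated collagen of tendon and wound tissue, at 283 against 125 CPM with a log2 ratio of 1.18, and 1.05 after thinning. Col6a1 and Col6a3, of the beaded filament network around cells, had log2 ratios of 0.48 and 0.50, and 0.65 and 0.63 after thinning. Of the 22 genes that modify, fold, cleave or crosslink collagen, 2 were past 2-fold higher, none was past 2-fold lower, and 20 had a ratio above 0, with a median of 0.41. P4ha3, a prolyl hydroxylase subunit, was 40.0 against 10.3 CPM with a log2 ratio of 1.95 (1.43 to 2.51), and 1.51 after thinning. Loxl2, a lysyl oxidase that crosslinks collagen, was 133 against 65.3 CPM with a log2 ratio of 1.03, and 0.76 after thinning. Serpinh1, the collagen chaperone, and Lox, the founding lysyl oxidase, had smaller log2 ratios of 0.51 and 0.58, and 0.42 and 0.46 after thinning.

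**Figure D2:**
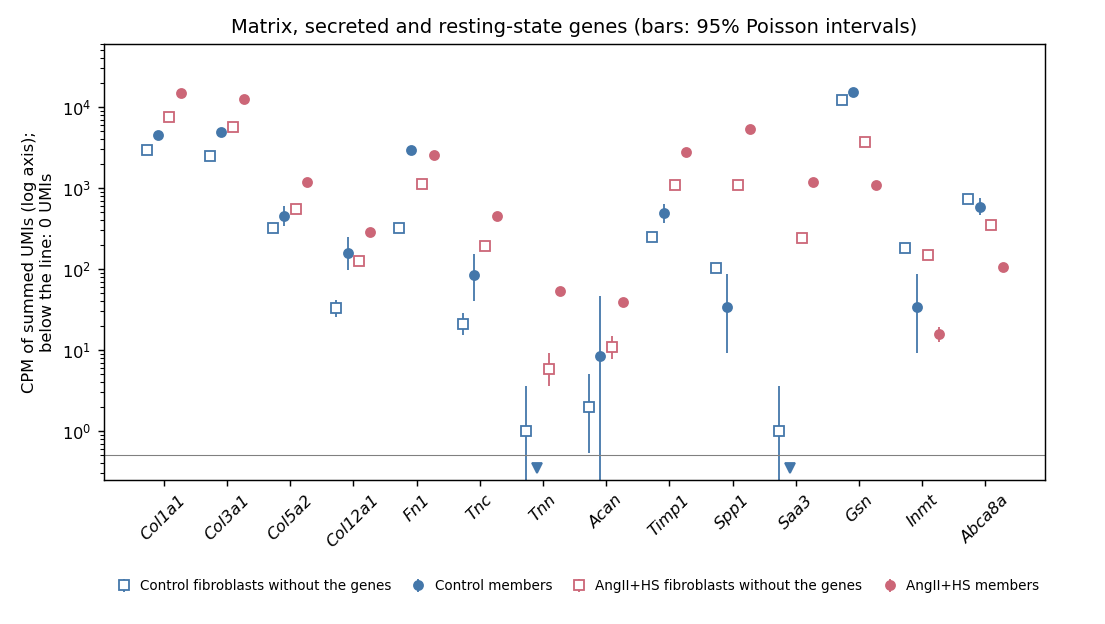
Summed levels (CPM, log axis) of matrix, secreted and resting-state genes in members (filled) and negative fibroblasts (open) of each library, with 95% Poisson intervals as bars and triangles below the line for no UMI. Col1a1, Col3a1 and Tnc were higher in AngII+HS members than in AngII+HS negative fibroblasts, and Gsn was lower.

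Among matricellular proteins and adhesive glycoproteins, 4 of 17 tested genes were past 2-fold higher in AngII+HS members and 1 was past 2-fold lower, with a median log2 ratio of 0.22. The 4 were Fn1, Tnc, Ccn4 and Spp1, and the lower gene was Sparcl1. After thinning with the rule applied again, 1 gene was past 2-fold higher and 0 lower, and Spp1 turned direction, as given below. With the thinned groups kept as chosen at full depth, 3 were higher and 1 lower. Fn1, fibronectin, was 2576 against 1116 CPM, a log2 ratio of 1.21 (1.15 to 1.26) that was 0.74 after thinning. Tnc, tenascin C of remodelling matrix, was 457 against 193 CPM with a log2 ratio of 1.24 (1.12 to 1.37), unmoved at 1.24 after thinning. Tnn, tenascin N (a gene on no list and chosen after its values were seen), was 53.7 against 5.91 CPM with a log2 ratio of 3.18 (2.53 to 3.92), and 2.66 after thinning. Tnc thus kept its ratio over negative fibroblasts after thinning, and Tnn had a smaller one.

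Thbs2, an antiangiogenic thrombospondin, was 314 against 172 CPM with a log2 ratio of 0.87, and 0.96 after thinning. Sparc, which chaperones collagen outside the cell, was 8715 against 5493 CPM with 0.67, and 0.74 after thinning. Ccn2, a growth factor-like protein induced by TGF-beta, was lower in members, 421 against 668 CPM with a log2 ratio of -0.67, and -0.51 after thinning. Ccn4, a Wnt-induced protein of the same family, was 143 against 67.4 CPM with a log2 ratio of 1.09, and 0.61 after thinning.

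Of 11 proteoglycans, 3 were past 2-fold higher (Acan, Vcan and Prg4) and 2 past 2-fold lower. After thinning with the rule applied again, 2 were higher and 0 lower. Acan, the large aggregating proteoglycan of cartilage, was 38.7 against 10.9 CPM with a log2 ratio of 1.82 (1.31 to 2.37), and 2.26 after thinning. Vcan, versican of the provisional vessel matrix, was 307 against 129 CPM with a log2 ratio of 1.25 that was 0.42 after thinning. Of 16 genes of elastic fibers and microfibrils, 1 was past 2-fold higher and 1 past 2-fold lower (0 and 1 after thinning). The higher gene was Ltbp2, a microfibril protein, at 428 against 187 CPM with a log2 ratio of 1.20, and 0.54 after thinning. Eln, which encodes elastin, was 1374 against 962 CPM with a log2 ratio of 0.51, and 0.60 after thinning.

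Several secreted inflammatory genes were higher in members as chosen at full depth, and not once cells were thinned and the rule applied again. Spp1, osteopontin, was 5412 CPM in AngII+HS members and 1093 CPM in negative fibroblasts, a log2 ratio of 2.31 (2.26 to 2.36), but -0.31 (-0.39 to -0.23) after thinning. Saa3, an acute phase apolipoprotein, was 1191 against 239 CPM with a log2 ratio of 2.32, and -0.095 after thinning. Lcn2, an iron-sequestering lipocalin, went from a log2 ratio of 1.32 to -0.34, Prg4, lubricin of joint surfaces, from 1.34 to -0.38, and Cxcl14, a chemokine, from 1.35 to -0.52. Timp1, the inhibitor of matrix metalloproteinases, was 2788 against 1081 CPM with a log2 ratio of 1.37 and had 0.10 after thinning. Inhba, the activin A subunit, had log2 ratios of 0.97 and -0.03. When the same cells were thinned and the groups kept as chosen at full depth (572 members and 517 negative fibroblasts), the log2 ratio was 2.31 (2.21 to 2.42) for Spp1, 2.15 for Saa3, 1.43 for Lcn2, 1.14 for both Prg4 and Cxcl14, 1.40 for Timp1 and 0.83 for Inhba. The ratios of these 7 genes thus depended on which cells the rule picked, and they kept their direction at equal depth within the groups first picked.

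Spp1, Saa3 and Lcn2 were concentrated in few members. The top 61 AngII+HS members by Spp1 count held 95.2% of its UMIs, and 251 of the 610 members had any. The top 61 held 99.3% of Saa3 UMIs and 97.1% of Lcn2 UMIs, but 31.3% of Col1a1 UMIs. Thinned shares of cells with a UMI, here and for Acta2 and Saa3 below, are for the groups as chosen at full depth. A Spp1 UMI was found in 30.9% of thinned AngII+HS members (41.1% unthinned) and 22.4% of thinned negative fibroblasts (26.7% unthinned). In the thinned Cd3 gate the share was 18.5% (23.1% unthinned). The unthinned median depths were 6570.5, 3906 and 2940 UMIs, in that order. A Timp1 UMI was found in 65.0% of thinned members and 55.7% of thinned negative fibroblasts (75.2% and 59.4% unthinned). A Tnc UMI was found in 29.5% of thinned members (40.5% unthinned) against 8.88% of the thinned Cd3 gate (8.05% unthinned).

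Il11, a profibrotic cytokine of the interleukin 6 family, was 46.0 against 9.75 CPM with a log2 ratio of 2.24 (1.71 to 2.81), and 1.09 (0.58 to 1.59) after thinning. All of its 239 UMIs in AngII+HS members lay in 50 cells. Adam12, a membrane metalloproteinase of activated mesenchymal cells, was 85.0 against 29.5 CPM with a log2 ratio of 1.53, and 0.94 after thinning. Igfbp2, which binds insulin-like growth factors, was 65.8 against 18.3 CPM with 1.85, and 2.21 after thinning. Il6, interleukin 6, was 812 against 1287 CPM with a log2 ratio of -0.66 that was -0.17 after thinning, and Ccl2, a monocyte chemokine, was 2064 against 2100 CPM.

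**Figure D3:**
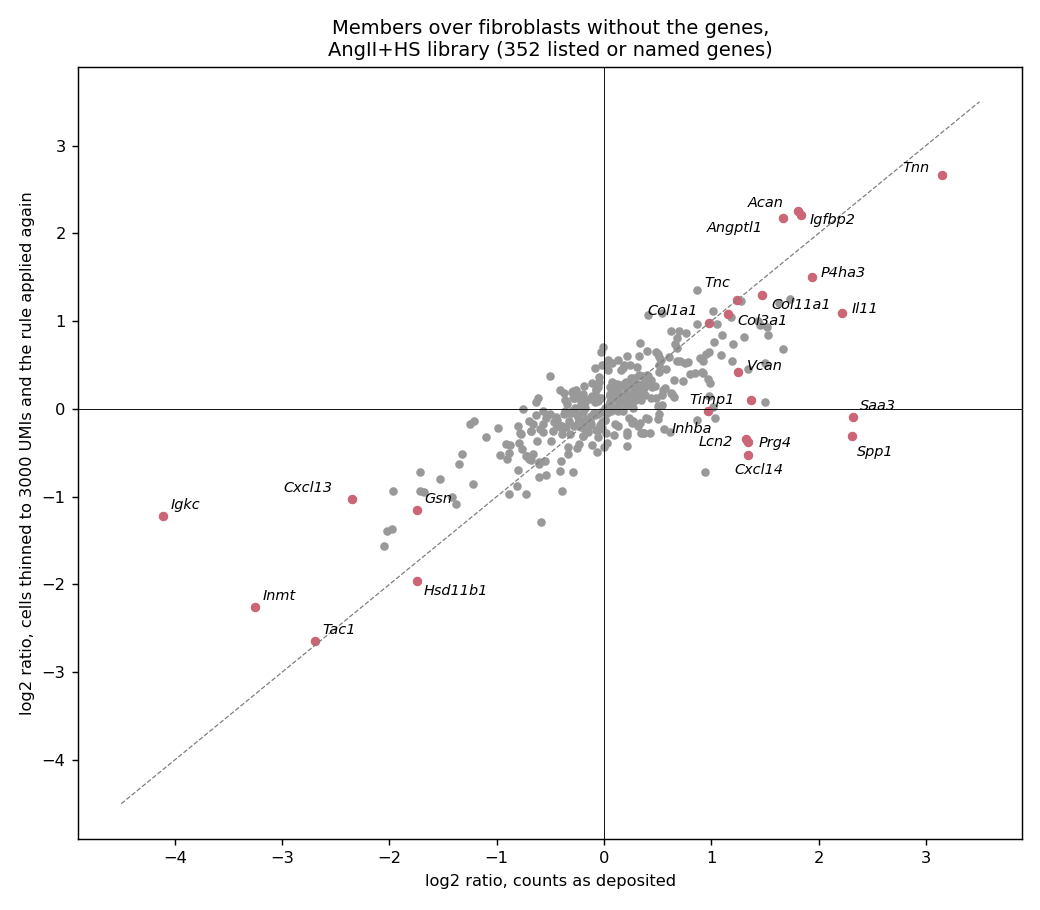
Log2 ratios of AngII+HS members over AngII+HS negative fibroblasts at full depth (x axis) and with every cell thinned to 3000 UMIs and the rule applied again (y axis), 1 point per listed or named gene with summed levels of at least 40 CPM (352 genes). Col3a1, Tnc, Tnn and Acan lie near the diagonal, while Spp1, Saa3, Lcn2, Prg4 and Cxcl14 lie below 0 on the y axis.

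Genes of resting and perivascular fibroblasts were lower in AngII+HS members. Of 17 such genes tested, 8 were past 2-fold lower and none was past 2-fold higher, with a median log2 ratio of -0.77, and 5 were past it with a median of -0.59 after thinning. Gsn, gelsolin, an actin-severing protein abundant in quiescent fibroblasts, was 1093 CPM in members against 3664 CPM in negative fibroblasts, a log2 ratio of -1.75 (-1.79 to -1.70), and -1.15 after thinning. Inmt, an indolethylamine methyltransferase, was 15.6 against 149 CPM with a log2 ratio of -3.26, and -2.26 after thinning. Hsd11b1, which activates glucocorticoids, was 28.9 against 96.9 CPM with -1.75, and -1.96 after thinning. Markers of several other cell types moved the same way, and those of smooth muscle, dendritic, adipocyte and mesothelial cells did not. Smooth muscle markers summed to 1000 CPM in negative fibroblasts and 1172 CPM in members, and dendritic cell markers to 54.1 and 82.0 CPM. From negative fibroblasts to members, the 7 pericyte markers summed to 1249 and 739 CPM, the 6 B cell markers to 3686 and 201 CPM and the 6 plasma cell markers, led in members by Jchain at 9.62 CPM, to 200 and 14.04 CPM. The 5 hemoglobin and heme genes summed to 1421 and 295 CPM and the 7 neutrophil markers to 1073 and 434 CPM. Negative fibroblasts thus held more pericyte, B cell, plasma cell, hemoglobin and neutrophil transcripts than members did. The part of these transcripts in the ratios was not tested. Set beside negative fibroblasts, members combined higher fibrillar collagen with lower transcripts of the resting state, before and after thinning.

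Abca8a, a lipid transporter, was 107 against 350 CPM with a log2 ratio of -1.71, and -0.94 after thinning. Fmo2, a flavin monooxygenase, was 415 against 1197 CPM with -1.53, and -0.80 after thinning. Cxcl13, a B cell chemokine, was 67.0 against 341 CPM with a log2 ratio of -2.35, and -1.03 after thinning. Of 14 adventitial fibroblast genes, whose class the absence of Pi16 and Dpp4 UMIs bears on, 3 were past 2-fold lower and none past 2-fold higher, with a median of -0.41. After thinning with the rule applied again, 0 were past 2-fold lower, with a median of -0.28. With the thinned groups kept as chosen at full depth, 1 was. Igkc, an immunoglobulin transcript that fibroblasts do not make, was 193 CPM in members and 3334 CPM in negative fibroblasts, a log2 ratio of -4.11 (-1.23 after thinning), and it was 1369 CPM in the AngII+HS Cd3 gate.

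The remaining lists showed small medians in this comparison, apart from the cell cycle list described below. None of 17 contractile and myofibroblast genes was past 2-fold in either direction, with a median log2 ratio of 0.20. Acta2, smooth muscle alpha-actin and the usual myofibroblast marker, was 558 against 425 CPM with a log2 ratio of 0.39 (0.30 to 0.48), and 0.38 after thinning. An Acta2 UMI was found in 52.6% of thinned members (76.6% unthinned) against 57.0% of the thinned Cd3 gate (67.7% unthinned), so this share is not read as above background, although the 61 members with the most Acta2 held 63.5% of its UMIs. None of 18 TGF-beta ligands, receptors and targets was past 2-fold, with a median of 0.01. Tgfb2, a ligand, was 356 against 209 CPM with a log2 ratio of 0.77, and 0.87 after thinning. Tgfb1 was 76.4 against 51.7 CPM with 0.56, and -0.24 after thinning. None of these 17 and 18 genes was past 2-fold under either thinning.

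Of 23 cytokines and chemokines, 5 were past 2-fold higher and 1 lower with a median log2 ratio of 0.05, of 26 growth factors and binding proteins 4 and 3 with 0.05, and of 17 metalloproteinases and inhibitors 2 and 0 with 0.01. Of 12 complement components, 0 were past 2-fold higher and 1 lower with a median of -0.19, and of 11 Wnt modulators and targets 1 and 2 with -0.02. Of 19 receptors of the renin-angiotensin, endothelin, growth factor and cytokine systems, 0 were past 2-fold higher and 2 lower with a median of -0.24. Agtr1a, the main angiotensin II receptor of the vessel wall, was near the detection limit at 2.5 CPM in AngII+HS members and 4.73 CPM in negative fibroblasts. Of 30 transcription factors, 0 and 2 were past 2-fold with a median of -0.04, and of 10 cartilage and bone genes 2 and 0 with 0.24. Thinned with the rule applied again, higher and lower genes numbered 3 and 1 for cytokines and 4 and 2 for growth factors. They were 0 and 0 for metalloproteinases and for complement, whose median was 0.07. Wnt genes had 0 and 1, receptors 0 and 2, transcription factors 0 and 1, and cartilage and bone genes 1 and 1.

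The 23 secretory pathway genes, the 15 immediate early and stress genes, the 14 glycolysis and hypoxia genes and the 6 hyaluronan genes had none past 2-fold, with medians of 0.23, -0.18, 0.24 and 0.13. Of 5 cell cycle genes that passed the filter, out of 19 listed, 3 were past 2-fold higher with a median of 1.13. After thinning with the rule applied again 2 were, with a median of 0.37. With the groups kept as chosen at full depth 2 were, with a median of 0.78. All 155 UMIs of Top2a, a replication enzyme, lay in 30 of the 610 AngII+HS members.

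**Figure D4:**
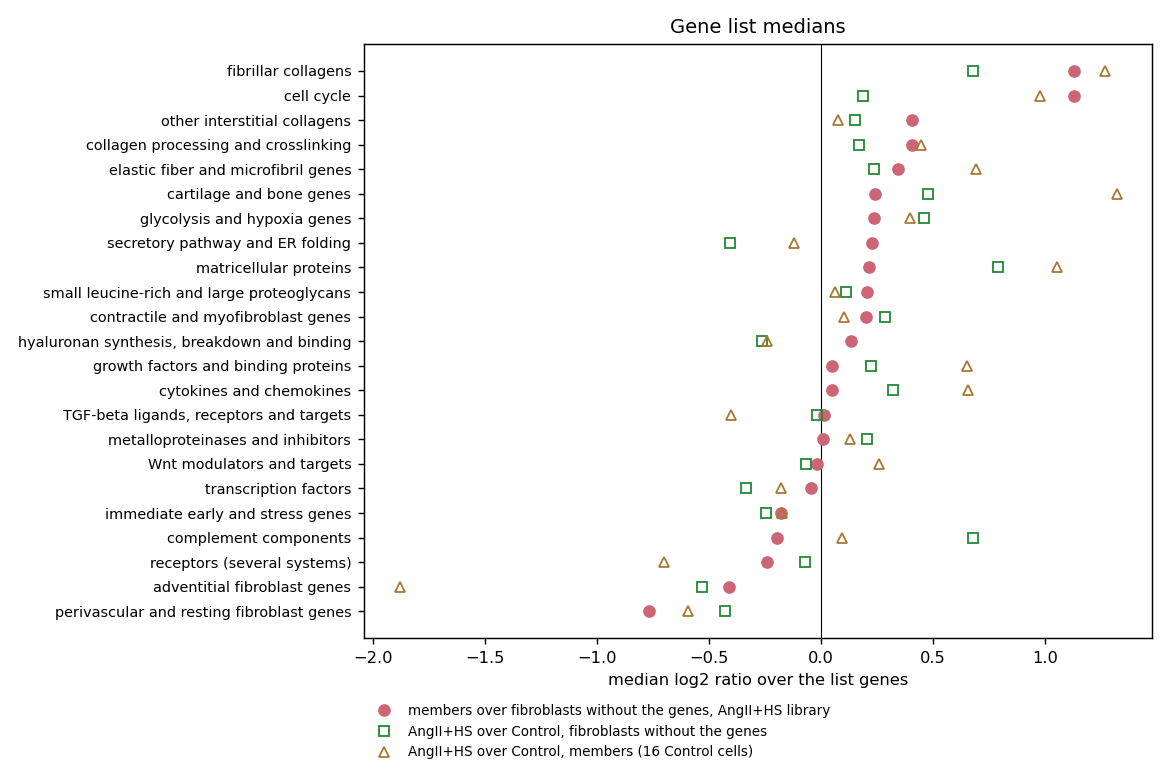
Median log2 ratio (x axis) of each gene list (y axis) for AngII+HS members over negative fibroblasts of that library (circles), and for AngII+HS over Control in negative fibroblasts (squares) and in members (triangles). Fibrillar collagens had medians of 1.13, 0.68 and 1.27, and adventitial fibroblast genes had -0.41, -0.53 and -1.88.

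The same description in the Control library rested on 16 members. There 1268 of 8451 genes (15%) were past 2-fold higher in members than in negative fibroblasts and 978 (11.6%) were past 2-fold lower, with a median log2 ratio over all genes of 0.13 and a median of 5 UMIs per gene in the members. Col3a1 was 4910 CPM in Control members and 2497 CPM in Control negative fibroblasts, with a log2 ratio of 0.98, and Col1a1 was 4482 and 2950 CPM with 0.60. The top Control cell for each gene held 289 of 585 Col3a1 UMIs and 201 of 534 Col1a1 UMIs. Of the fibrillar collagens, 1 was past 2-fold higher in Control, Col5a3 with a log2 ratio of 2.28. Gsn was not lower in Control members, at 15133 against 12311 CPM and a log2 ratio of 0.30. Fn1 had a log2 ratio of 3.17 there, but 1 cell held 262 of its 349 UMIs.

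Past 2-fold in both libraries were 59 genes higher (0.698%) and 90 lower (1.06%) in members. Of the 59, 8 had no UMI in Control members and were called there only through the 0.5 UMIs added, 27 had at most 3, and 16 had more than 3 with no cell holding most of them. Of the 90, 33 had no UMI in Control members and 62 had at most 3, so neither count is read as agreement between libraries. By the smaller of the 2 ratios, the leading genes included Saa3, Ncam1, Csgalnact1, Angptl1, Col5a3, Adam12, Ereg, Slco2a1, Hp, Cxcl14 and Prg4. Saa3 had no UMI in Control members and ranks here by the 0.5 UMIs added. In AngII+HS, the directions of Saa3, Cxcl14 and Prg4 turned once cells were thinned and the rule applied again. Ncam1, a neural cell adhesion molecule also of mesenchymal cells, had log2 ratios of 1.74 in AngII+HS and 3.89 in Control, but 24 of its 27 Control UMIs lay in 1 cell. Adam12 had 1.53 and 2.46 with 10 Control UMIs over 4 cells, and Col5a3 had 1.63 and 2.28 with 16 Control UMIs over 7 cells. Angptl1, an angiopoietin-like secreted protein, had 1.68 and 4.51 with 17 of 28 Control UMIs in 1 cell. Csgalnact1, which starts chondroitin sulfate chains, had 1.67 and 3.09 on 5 Control UMIs.

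Ereg, the growth factor epiregulin, had 3 Control UMIs in 3 cells and a log2 ratio of 1.5 in AngII+HS. Slco2a1, a prostaglandin transporter, had 1.46 and 2.09, and Hp, haptoglobin, had 1.35 and 2.16 on 5 Control UMIs. Single cells thus carried much of what could be read in Control.

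AngII+HS members were then set beside Control members. Of 7790 genes tested, 894 (11.5%) were 2-fold or more higher and 1154 (14.8%) 2-fold or more lower in AngII+HS, with a median log2 ratio of -0.12. The split turned with the scaling: with TMM factors, 1372 genes were higher and 595 lower and the median was 0.19, so directions near this shift are not read. In negative fibroblasts, where 659 and 763 cells were compared, 454 of 8451 genes (5.37%) were higher and 232 (2.75%) lower, with a median of -0.03. Shares of called genes were larger with 16 cells on 1 side than with 659 and 763.

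Collagen I and III stood higher in the AngII+HS group in both kinds of fibroblast. Col1a1 was 4482 CPM in Control and 15008 CPM in AngII+HS members, a log2 ratio of 1.74 (1.62 to 1.87), beside 1.37 in negative fibroblasts. Col3a1 was 4910 and 12722 CPM, a log2 ratio of 1.37 (1.26 to 1.49), beside 1.19. A single Control member held 289 of that group's 585 Col3a1 UMIs. Of 8 fibrillar collagens, 6 were past 2-fold higher in members and 3 in negative fibroblasts, with medians of 1.27 and 0.68. Both comparisons use the same libraries and are given side by side only. Lox had a log2 ratio of 1.77 in members and 0.86 in negative fibroblasts.

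Of 17 matricellular genes, 9 were higher and 2 lower in members, with a median of 1.05. Tnc was 83.9 and 457 CPM with a log2 ratio of 2.45 on 10 Control UMIs, beside 3.19 in negative fibroblasts, and Timp1 was 487 and 2788 CPM with 2.52 (2.15 to 2.92), beside 2.11. Fn1 had -0.19 in members and 1.78 in negative fibroblasts, and Eln had -0.04 and 1.63. The top Control member for each gene held 262 of 349 Fn1 UMIs, 107 of 168 Eln UMIs, 39 of 58 Timp1 UMIs and 6 of 10 Tnc UMIs. Each of these Control levels is thus set largely by 1 cell.

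The 12 highest genes of this comparison were mostly absent from the Control members. Spp1 had 4 UMIs in Control members, in 1 cell, and was 33.6 CPM there and 5412 CPM in AngII+HS members, a log2 ratio of 7.33 (5.98 to 9.21), beside 3.39 in negative fibroblasts. The other 11 had no UMI in Control members. Their folds, written as at least, are set against a floor of 3 UMIs over the Control members and are not interval limits. They do not allow for how UMIs were spread over cells. Thinned, Saa3 was found in 11.4% of AngII+HS members and in 0 of 14 Control members, with an interval of 0 to 23.2%. Saa3 was at least 47.3-fold higher, Ctla2a, a cysteine protease inhibitor, at least 20.02-fold, Lcn2 at least 13.3-fold and the neutrophil calprotectin gene S100a9 at least 8.92-fold. Cxcl5, a neutrophil chemokine, was at least 7.98-fold higher, Igkc at least 7.66-fold, Il1b, interleukin 1 beta, at least 6.04-fold and Kif26b, a kinesin family gene, at least 5.81-fold.

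Ccn5, a matricellular gene, was at least 5.02-fold higher, the chemokine gene Cxcl3 at least 4.91-fold and Col11a1 at least 4.84-fold. Of these, S100a9, Il1b and Igkc are genes of leukocytes, and in AngII+HS negative fibroblasts S100a9 was 563 CPM, Il1b 251 CPM and Igkc 3334 CPM, all above the members. Cxcl3 was likewise 124 CPM in members, 180 CPM in negative fibroblasts and 194 CPM in the Cd3 gate of that library, and Ctla2a was 504 CPM in members and 420 CPM in the Cd3 gate. The part of free RNA in these 5 genes was not tested.

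The 12 lowest genes were Tac1, Sost, Igfbp5, Lsamp, Gsn, Sntg1, Abca8b, Iqgap2, Itih5, Ebf2, Sparcl1 and Dchs2. Gsn had the most UMIs behind it, with 15133 CPM in Control and 1093 CPM in AngII+HS members, a log2 ratio of -3.79 (-3.87 to -3.71) beside -1.75 in negative fibroblasts. Igfbp5, which binds insulin-like growth factors, was 4356 and 237 CPM with a log2 ratio of -4.20, beside -2.88, but 1 cell held 376 of its 519 Control UMIs. Sost, the Wnt antagonist sclerostin, had a log2 ratio of -4.38 with 37 of 41 Control UMIs in 1 cell, and Tac1, a tachykinin precursor, had -4.89 with 14 of 21 in 1 cell. In 4 of the 12 genes, 1 Control cell held most of the UMIs. The direction turned for Sntg1 (0.57) and Dchs2 (0.25) once cells were thinned and the rule applied again, which left 10 Control members, and for Igfbp5 (0.56) with at least 6 Postn and Cthrc1 UMIs.

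Lsamp, a neural adhesion gene, had a log2 ratio of -4.16, Sparcl1, a SPARC-like glycoprotein, -3.16, and Ebf2, an early B cell factor of adipogenic progenitors, -3.17. Of 14 adventitial fibroblast genes, 9 were past 2-fold lower in AngII+HS members with a median of -1.88, and in negative fibroblasts 4 were, with a median of -0.53. Clec3b, tetranectin, was 579 and 122 CPM with a log2 ratio of -2.25, beside -1.31, and Cd34, a sialomucin of progenitor and adventitial cells, was 277 and 59.5 CPM with -2.22, beside -1.14. Both were also lower in AngII+HS negative fibroblasts.

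The AngII+HS members were not uniform in Cthrc1. The 253 members with a Cthrc1 UMI had a median of 9289 UMIs and the 357 without had 5526, so values are again given with every cell thinned, which left 151 and 261 cells. Col1a1 was 14946 CPM with and 15082 CPM without Cthrc1, a log2 ratio of -0.01, and 0.39 after thinning. Postn itself was lower in the cells with Cthrc1, 632 against 937 CPM with a log2 ratio of -0.57, both genes being counted in the joint threshold. Collagen I thus did not separate the cells with Cthrc1 from those without at full depth.

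Some secreted factors, chosen after their values were seen, were higher in the cells with Cthrc1 and others were lower. Il11 was 75.1 CPM with and 11.7 CPM without Cthrc1, a log2 ratio of 2.68 (2.11 to 3.30), and 2.76 after thinning. Spp1 was 8254 against 2071 CPM with a log2 ratio of 1.99, and 2.90 after thinning. Prg4 had log2 ratios of 2.35 and 2.77, Inhba 1.72 and 1.73 and Timp1 1.59 and 1.62 before and after thinning. Tnn was 80.5 against 22.2 CPM with a log2 ratio of 1.86, and 2.30 after thinning, and Tnc was 625 against 259 CPM with 1.27, and 1.61 after thinning. Il6 was lower with Cthrc1, 590 against 1074 CPM with a log2 ratio of -0.86 before and after thinning, and Csf1, a macrophage growth factor, was 192 against 291 CPM with -0.60, and -0.44 after thinning. Cxcl12, a chemokine of stromal cells, had -0.41 and -0.26. Gsn was also lower, 727 against 1523 CPM with a log2 ratio of -1.07, and -1.42 after thinning. Within the members, cells with Cthrc1 thus held more of the tenascin, osteopontin and Timp1 transcripts, after thinning as well.

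Members of both libraries were also clustered on their own. A cluster's leading genes defined it and are given as a description, and no cluster was named as a cell type. The first subcluster, of 121 cells (6 Control), was led by Rgs5 and Rbp4, with Eln at 4057 CPM, Rgs5, a signalling regulator of mural cells, at 1837 CPM, Acta2 at 1165 CPM and Notch3, a mural cell receptor, at 148 CPM. The second, of 183 cells (2 Control), was led by Comp and Ogn, with Comp, the cartilage oligomeric matrix protein, at 1268 CPM, Ogn, a small leucine-rich proteoglycan, at 1382 CPM and Col1a1 at 18233 CPM. The third, of 133 cells (8 Control), was led by Sfrp4 and C4b, with the Wnt antagonist Sfrp4 at 3372 CPM, the complement gene C3 at 3498 CPM, Gsn at 3972 CPM and Col1a1 at 24654 CPM, the highest Col1a1 level of the 6. Control members fell into these 3 subclusters only, with none of the 16 in the other 3.

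The fourth, of 96 AngII+HS cells, was led by Saa3 and Spp1, with Spp1 at 17145 CPM, Saa3 at 3869 CPM, Timp1 at 5077 CPM and Tnc at 904 CPM. Its cells had a median of 13931 UMIs, and 59 of the 96 were among the cells with the highest Scrublet doublet scores. Without all cells so marked, the log2 ratio of AngII+HS members over negative fibroblasts was 1.82 for Spp1 and 1.77 for Saa3. The fifth, of 47 AngII+HS cells with a median of 14150 UMIs, was led by the retinoic acid-making enzymes Aldh1a2 and Aldh1a3, with Timp1 at 6930 CPM, Il11 at 249 CPM, Cthrc1 at 292 CPM and Postn at 242 CPM. Its Col1a1 was 4909 CPM, the lowest of the 6. The most Cthrc1 per UMI was thus found beside the least Col1a1 and Postn.

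The sixth, of 46 AngII+HS cells, was led by Ccl4, Pf4 and Cd74, genes of macrophages and antigen presentation, with Ccl4 at 2577 CPM and Lyz2 at 960 CPM. Its macrophage markers summed to 2802 CPM against 13530 CPM in the macrophage gate, its Col1a1 was 11573 CPM, and 46 of its 46 cells were marked by Scrublet. Ptprc was limited to 1 UMI by the rule. Without these 46 cells the share of members was 11.7% in AngII+HS, and 138 genes were past 2-fold higher and 360 lower than in negative fibroblasts.

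**Figure D5:**
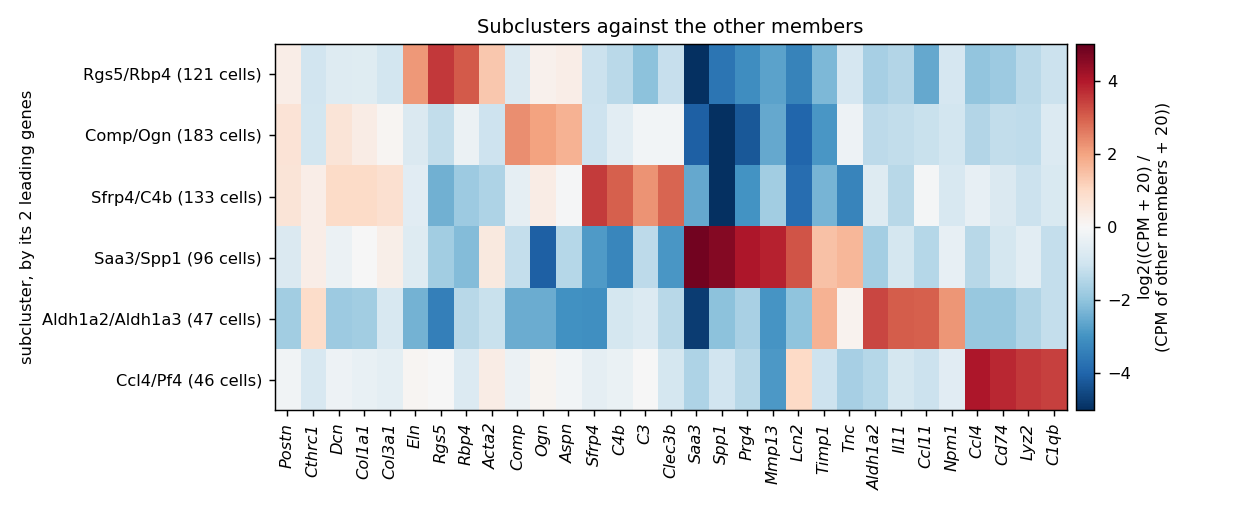
Subclusters of members (rows, named by their leading genes, with cell numbers) by selected genes (columns). Color gives the log2 ratio of a gene in a subcluster over all other members, with 20 CPM added to both, red for higher and blue for lower, so that Col1a1 at 24654 CPM in the Sfrp4/C4b row is red and at 4909 CPM in the Aldh1a2/Aldh1a3 row is blue.

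Finally, AngII+HS members were compared with the 1074 AngII+HS fibroblasts that also had at least 3 Postn and Cthrc1 UMIs but carried Pi16 or Dpp4. Of 8329 genes, 86 (1.03%) were 2-fold or more higher in members and 41 (0.492%) 2-fold or more lower, fewer than against negative fibroblasts. No fibrillar collagen of 9 was past 2-fold, and Col1a1 was 15008 CPM in members and 18311 CPM in the Pi16/Dpp4 cells, a log2 ratio of -0.29. Col3a1 had -0.46, Fn1 -0.10, Timp1 0.12 and Cthrc1, at 198 CPM in the Pi16/Dpp4 cells, -0.25. Collagen levels of this height were therefore also found in the Pi16/Dpp4 fibroblasts that met the same Postn and Cthrc1 threshold. Gsn stood at 1168 CPM in those cells, a log2 ratio of -0.10. Of 17 resting and perivascular genes, 1 was past 2-fold higher in members and 0 lower, with a median of -0.25. Low Gsn was thus not particular to members.

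Some contractile genes were higher in members, with 5 of 17 past 2-fold and a median of 0.46 at full depth, and 3 past 2-fold with a median of 0.41 when the same cells were thinned. Acta2 was 558 against 268 CPM with a log2 ratio of 1.06 (0.98 to 1.13), and 0.81 (0.67 to 0.94) thinned. An Acta2 UMI was found in 52.6% (48.4 to 56.8) of thinned members and 47.3% (44.2 to 50.4) of the thinned Pi16/Dpp4 cells, both below the 57.0% of the thinned Cd3 gate. The subcluster led by Rgs5, with Acta2 at 1165 CPM, had summed pericyte markers of 2410 CPM and smooth muscle markers of 2618 CPM. The part of mural cell RNA in these ratios was not tested. Mylk, myosin light chain kinase, was 77.2 against 35.3 CPM with 1.13, and Prkg1, the cGMP-dependent kinase of smooth muscle, was 303 against 139 CPM with 1.12. The summed smooth muscle markers were 1172 CPM in members, and the Pi16/Dpp4 fibroblasts as a whole had 628 CPM. Among the genes named from this comparison, the largest ratio was that of Penk, proenkephalin, at 93.3 against 26.7 CPM with a log2 ratio of 1.81. Erbb4, a neuregulin receptor, followed with 1.67 and Aqp1, a water channel, with 1.53. Spp1 was 5412 against 2128 CPM with 1.35, Lcn2 336 against 127 CPM with 1.40 and Cxcl14 446 against 266 CPM with 0.75. Saa3 was lower in members, at 1191 against 1584 CPM with -0.41. Prg4 was near level, at 634 against 651 CPM with -0.04.

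Lower in members were genes of the adventitial program, of which 5 of 15 were past 2-fold lower with a median of -0.93, beside the criterion that excluded Pi16 and Dpp4. Sfrp4 was 799 against 1999 CPM with a log2 ratio of -1.32, Sfrp1, another Wnt antagonist, 397 against 1007 CPM with -1.34, and Cilp, a cartilage intermediate layer protein, 31.6 against 93.7 CPM with -1.57. Lbp, the lipopolysaccharide-binding protein, was 104 against 402 CPM with -1.96, and Dio2, a thyroid hormone deiodinase, 21.7 against 107 CPM with -2.30. Immunoglobulin transcripts, which fibroblasts do not make, were lower in the same direction, with Igha at 32.3 against 250 CPM and a log2 ratio of -2.95, the lowest of the named genes, and Igkc at 193 against 778 CPM with -2.01. Their part in the other ratios was not tested. Of 8 Wnt modulators and targets, 3 were past 2-fold lower with a median of -0.49.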

How the data were processed

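The authors deposited UMI counts per gene and barcode, without normalization, as Cell Ranger output. The file header names Cell Ranger version 8.0.1, the methods name another version, and the genome build is GRCm39 in the methods and mm10 in the submitters' processing notes. Each matrix (33696 genes) was used for the sample under which it is recorded. The filter on cells (at least 500 UMIs, at least 200 genes, under 20% mitochondrial UMIs) follows the methods. The study removed doublets with DoubletFinder. Here none were removed for the values of the report, and removal of the highest Scrublet scores (scanpy 1.11.5, 0.8% per 1000 cells, 9.03% of Control and 19.6% of AngII+HS cells) was an alternative. The members, gene lists and comparisons were chosen with earlier results of these data known.

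UMIs were summed per group of cells and given as CPM. Log2 ratios have exact conditional binomial intervals, CPM exact Poisson intervals and shares exact Clopper-Pearson intervals, at 95%. With 1 library per condition there was no test, and a gene was called when 2-fold or more apart. Genes tested had a mean CPM of at least 10 and at least 50 UMIs over the groups compared, without the rule's genes, and 0.5 UMIs were added for calls, ranks and list medians. Folds against groups without UMIs are set against 3 UMIs and are not interval limits. Named genes were the rule's genes, the 12 highest and 12 lowest of AngII+HS over Control members and the 12 highest over negative fibroblasts in both libraries (mean CPM of at least 50, a UMI in at least 10% of members), the 10 most abundant genes (Malat1, Mgp, Col1a1, Col3a1, Col1a2, Fth1, Gsn, Dcn, Tpt1 and Sparc) and the most abundant and most different genes of each list. A gene that met this rule is not reported here. Genes named from the Pi16/Dpp4 comparison, the Cthrc1 split and the subclusters were chosen after their values were seen.

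Thinning drew 3000 UMIs per cell without replacement, leaving out shallower cells, and applied the rule again. An alternative kept the groups as chosen at full depth. Members were clustered by the Leiden method on 1500 variable genes with 20 components, 15 neighbours and resolution 0.5. The ratio scripts were tested on simulated data. Alternatives were other filters and thresholds, TMM factors (edgeR 4.0.16, R 4.3.3), per-cell means and subtraction of Cd3-gate CPM. Python 3.11.15, numpy 2.4.6, scipy 1.17.1, pandas 2.3.3, python-igraph 0.11.9 and matplotlib 3.10.9 were used.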

Additional observations from a re-analysis of the deposited data

Results flagged for a closer look

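For Spp1 and Tac1, members stood apart from negative fibroblasts in opposite directions in the 2 libraries at full depth. The AngII+HS direction of Spp1 turned to that of Control once cells were thinned and the rule applied again. It did not turn with the thinned groups kept as chosen at full depth. Spp1 had a log2 ratio of 2.31 in AngII+HS, where members held 28128 UMIs, and -1.63 in Control, where 1 of the 16 members held all 4 UMIs. Tac1 had -2.71 in AngII+HS, where 10 of 610 members held its 31 UMIs, and 1.71 in Control, where 2 of 16 members held its 21 UMIs. The difference between the libraries was not tested for either gene.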

How the results depend on the processing

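No paired analysis was possible because each condition has 1 library and no result comes from a test, and for the same reason no replicate could be left out. Counts are given as higher and lower genes, first for AngII+HS over Control members, then for members over negative fibroblasts in both libraries, then in the AngII+HS library. They were 894 and 1154, 59 and 90, and 115 and 278.

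The share of members among gated fibroblasts was higher in AngII+HS than in Control under every setting that changes it. It was 1.55% in Control and 17.0% in AngII+HS with at least 2 Postn and Cthrc1 UMIs, 0.442% and 6.22% with at least 6, and 2.99% and 34.7% with no limit on Pi16 and Dpp4 (a setting chosen after seeing the data, which gave 591 genes higher over Control). In AngII+HS it was 17.9% with at most 1 Pi16 or Dpp4 UMI, 11.5% without Scrublet doublets and 9.80% thinned.

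With at least 6 UMIs, 97 and 141 genes were past 2-fold in both libraries. Thinned, 705 genes were lower over Control, 32 lower in both libraries, and 59 higher and 166 lower in AngII+HS. TMM factors gave 1372 and 595 over Control. Subtracting Cd3-gate CPM gave 1456 and 2035, 308 and 329, and 1018 and 902. A mean CPM of at least 50 gave 287 and 486, 20 and 39, and 38 and 101, and one of at least 200 (added after seeing the data) 57 and 98 over Control. No filter beyond 1 UMI gave 1690 and 9214, 1306 and 151, and 1564 and 3400. A 1.5-fold call gave 1605 and 2308, 247 and 266, and 473 and 785, and a 3-fold call 453 and 307, 15 and 30, and 29 and 91.

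A gene's log2 ratio was counted as holding where it stayed within its counting interval, and a list's median where it moved by less than 0.25. Of 150 such results, 150 held when CPM left out mitochondrial genes, 149 under the stricter cell filter, 139 without the subcluster led by macrophage genes, 124 with at most 1 Pi16 or Dpp4 UMI, 118 with at least 2 Postn and Cthrc1 UMIs and 105 with at least 6, 104 with TMM factors, 103 without Scrublet doublets, 102 as means of per-cell CPM, 83 with no limit on Pi16 and Dpp4 and 70 after Cd3-gate subtraction. When thinned, 62 held, 79 moved and 9 reversed. The reversed log2 ratios of AngII+HS members over negative fibroblasts were Saa3 -0.095, Spp1 -0.31, Lcn2 -0.34, Cxcl14 -0.52 and Prg4 -0.38, and those over Control members were Sntg1 0.57, Dchs2 0.25, Ncam1 0.49 and Prg4 -1.34. Over Control members, Igfbp5 was 0.56 with at least 6 UMIs, Prg4 was -0.18 as a mean of per-cell CPM and Ncam1 was 1.36 after subtraction. With the groups kept as chosen at full depth and their cells thinned (added after seeing the data), 98 of the 150 held, 51 moved and Prg4 over Control members reversed to -0.49. So the 5 reversals over negative fibroblasts came with the groups chosen again. The cause of the other reversals was not tested. Depth limits Control, with 119146 UMIs in 16 members.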
